A study of Homo sapiens with 24 samples.

Results

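The genes described here are 37 genes of glucose uptake, glycolysis and the response of cells to low oxygen. They were taken by name from a list and no measured value entered the rule: 2 transporters (SLC2A1 and SLC16A3), 18 glycolytic enzymes, 16 other targets of the hypoxia-inducible factor (HIF), and HIF1A, which encodes a HIF subunit. PFKFB3 and PFKFB4, which regulate glycolysis rather than catalyse one of its steps, were counted among the enzymes. All 37 were found among the 27431 gene symbols of 3 genome-wide tables. The RNA came from SKBR3, HCC1954 and HCC1569, established lines of HER2-positive human breast carcinoma, in which TFAP2C had been knocked down. TFAP2C encodes the transcription factor AP-2gamma. There were 24 samples in 8 groups of 3. The question stated by the submitters was which AP-2gamma targets govern growth and invasiveness. In each line, cells transfected with a non-targeting siRNA were set against cells transfected with a TFAP2C siRNA and incubated for 72 to 96 h. In HCC1954, clones that stably carry a lentiviral control shRNA were also set against clones that carry a TFAP2C shRNA, and the number of clones is not given in the labels. Cells were at passage 5 to 10, the submitters state that they did not authenticate them, and no label names a low-oxygen treatment. The HCC1569 table lists 68 selected genes and holds 0 of the 37, so that line is not described further.

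In glycolysis a chain of cytosolic enzymes turns glucose, taken up by GLUT1 (SLC2A1), into pyruvate with a net gain of ATP. LDHA then reduces pyruvate to lactate, which MCT4 (SLC16A3) carries out of the cell. When oxygen is low the alpha subunits of HIF escape hydroxylation by prolyl hydroxylases, pair with ARNT and bind the core sequence ACGTG or GCGTG near their target genes, among them most glycolytic enzymes. Carcinoma cells often run glycolysis at a high rate in the presence of oxygen as well, and HER2 signalling is among the inputs known to raise it. HIF is controlled mainly through the stability of its alpha subunits, so the mRNA of HIF1A is not a measure of HIF activity.

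The HIF core sequence was looked up in the stretch of 250 bases before each annotated transcript start (RefSeq, GRCh38.p14), because the enzymes and the other HIF targets below moved differently. Of the 37 genes 34 matched an entry, with 64 windows, and VEGFA, NDRG1 and BNIP3L did not. ACGTG or GCGTG, read on both strands, was present in 22 of 39 windows of enzymes (56.4%) and 13 of 17 windows of other hypoxia targets (76.5%), against 43.2% of all 35116 windows. These are counts of windows, and HK1 and PFKM have many windows, most of them without a match. Counted by gene, any window with a match was enough, so a gene with many windows had more chances. No share by gene was computed over all genes. A match was found for all of the 18 enzymes but PGAM1 and PKM. It was found for all of the 13 targets with an entry but P4HA2 and EGLN3. The windows of the enzymes and of the targets are richer in G and C (median 68.4% and 68.0%) than all windows (58.0%). The palindrome GCCNNNGGC, a motif bound by AP-2 factors, was found in 25.6% of enzyme windows, 23.5% of target windows and 19.8% of all windows. The palindrome CACGTG, which contains ACGTG on each strand and is therefore counted on both, was in 15.4%, 11.8% and 6.34%. A match is a description of letters and not evidence that a factor binds there.

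Of these windows 6 are printed, 5′ to 3′ on the strand of the gene, with ACGTG or GCGTG on either strand in capitals (CACGT and CACGC are the same motifs read on the opposite strand). ADM and KDM3A were higher in every genome-wide comparison, ERO1A rose in SKBR3 and was lower with the TFAP2C shRNA, and SLC2A1, LDHA and PGK1 stand for the transporters and the enzymes.
ADM, chr11:10304823-10305072, plus strand: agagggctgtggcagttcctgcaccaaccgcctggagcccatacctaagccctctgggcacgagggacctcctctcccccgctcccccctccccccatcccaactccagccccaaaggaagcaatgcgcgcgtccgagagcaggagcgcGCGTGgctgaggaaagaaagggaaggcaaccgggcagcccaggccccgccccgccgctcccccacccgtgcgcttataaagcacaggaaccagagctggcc
KDM3A, chr2:86441121-86441370, plus strand: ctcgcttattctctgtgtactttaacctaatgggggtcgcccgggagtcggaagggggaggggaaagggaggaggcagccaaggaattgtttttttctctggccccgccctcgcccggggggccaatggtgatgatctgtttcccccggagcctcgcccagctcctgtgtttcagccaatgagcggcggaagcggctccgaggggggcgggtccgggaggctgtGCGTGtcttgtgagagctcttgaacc
ERO1A, chr14:52695559-52695808, minus strand: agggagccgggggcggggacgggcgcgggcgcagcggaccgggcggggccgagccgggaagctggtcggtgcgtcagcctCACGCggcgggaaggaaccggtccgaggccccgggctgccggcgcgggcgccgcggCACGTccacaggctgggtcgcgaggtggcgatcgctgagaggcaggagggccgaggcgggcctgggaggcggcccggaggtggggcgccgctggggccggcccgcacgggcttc
SLC2A1, chr1:42958869-42959118, minus strand: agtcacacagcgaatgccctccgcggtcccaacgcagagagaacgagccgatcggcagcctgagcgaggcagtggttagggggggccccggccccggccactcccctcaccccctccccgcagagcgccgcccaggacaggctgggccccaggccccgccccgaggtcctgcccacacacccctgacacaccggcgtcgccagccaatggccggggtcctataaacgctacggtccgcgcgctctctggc
LDHA, chr11:18394313-18394562, plus strand: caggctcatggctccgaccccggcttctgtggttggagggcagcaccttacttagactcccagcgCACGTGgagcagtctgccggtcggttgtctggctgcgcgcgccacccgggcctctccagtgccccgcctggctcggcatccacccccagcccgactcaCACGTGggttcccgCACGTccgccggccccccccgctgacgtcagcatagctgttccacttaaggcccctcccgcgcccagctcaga
PGK1, chrX:78103998-78104247, plus strand: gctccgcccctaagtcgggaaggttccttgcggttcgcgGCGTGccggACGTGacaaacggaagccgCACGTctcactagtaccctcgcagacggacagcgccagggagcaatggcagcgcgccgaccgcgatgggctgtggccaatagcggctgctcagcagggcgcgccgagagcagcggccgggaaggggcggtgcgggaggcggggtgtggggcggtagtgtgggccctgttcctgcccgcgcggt
ADM holds 1 match, which starts at base -101 from the transcript start, and KDM3A holds 1, at -26. ERO1A holds 2 matches, PGK1 3 and LDHA 5 (its CACGTG palindromes count on each strand), and the window of SLC2A1 holds 0. Sequence outside the window was not searched, so sites elsewhere near SLC2A1 are not covered. SLC16A3, the other transporter, has windows with matches and windows without. KDM3A and LDHA each have another window, not printed, with 1 match. The AP-2 palindrome occurs 2 times each in the windows of ERO1A and SLC2A1 and 0 times in the other windows printed.

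The values are FPKM (fragments scaled to transcript length and to library size), 1 pooled value per group as the authors deposited it, and a level below is this value summed over the RefSeq entries of a gene. No spread between the samples of a group can be given. A gene is said to rise or fall only where the q-value in the authors' deposited table was under 0.05 for its entry of highest mean FPKM over the 6 groups. That entry can hold a small part of the gene's level in a given pair. In control cells it held 1.01% for PFKFB3 in the shRNA pair, and 18.4% for LDHA and 25.2% for VEGFA in the siRNA pair of HCC1954. Whether the 3 samples of a group were separate cultures is not stated in the labels, so the deposited p-values measure a spread that may be technical. Sequencing depth is unknown. GAPDH, PGK1, LDHA, ENO1, PGAM1 and several other enzyme genes have near-identical processed pseudogenes, and the sources used here do not say how reads that match more than 1 place were counted, so their levels are uncertain to that extent. In bulk RNA, fewer cells of a type and less RNA per cell cannot be told apart.

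TFAP2C (chromosome 20, 55204362 to 55214339, plus strand, GRCh37) fell 2.92-fold in SKBR3, 4.20-fold with siRNA in HCC1954 and 23.4-fold with shRNA in HCC1954. Carcinoma epithelial genes were present in every group (EPCAM at 105 to 161 FPKM), except that CDH1 was at 0.0894 FPKM in SKBR3 control cells. The summed level of 6 fibroblast markers did not pass 1.96 FPKM in any group, PECAM1 was the only one of 5 endothelial markers above 1 FPKM and CD68 and CD14 the only ones of 5 leukocyte markers. The group labelled TFAP2C shRNA stood apart from its own control in more than these genes. ERBB2, the HER2 gene, fell 73.3-fold there, from 1525 to 20.8 FPKM. It also fell in SKBR3, from 1109 to 609 FPKM (1.82-fold), and was not called with siRNA in HCC1954, at 4676 and 4016 FPKM. In the shRNA pair 4 basal epithelial markers together went from 655 to 0.640 FPKM and KRT19 rose from 19.9 to 634 FPKM, whereas KRT19 fell in both siRNA comparisons, by 1.65- and 1.87-fold. The Spearman correlation with its own control over the genes tested was 0.644. This is below the 0.977 of the siRNA pair in HCC1954, the 0.949 of the siRNA pair in SKBR3 and the 0.726 between the siRNA controls of SKBR3 and HCC1954. A change with the TFAP2C shRNA and a difference between the cell populations of these 2 groups cannot be told apart.

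**Figure D1:**
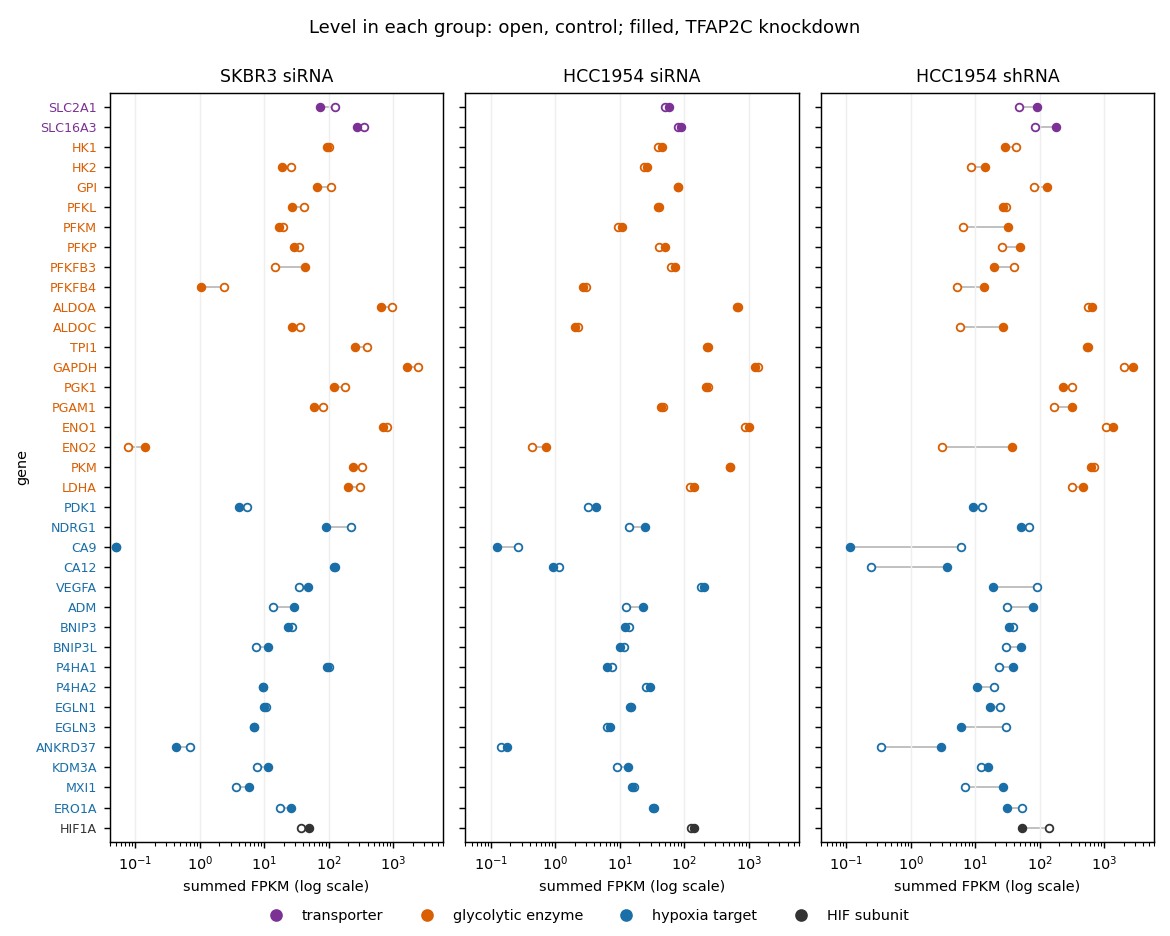
Summed FPKM (log scale) of the 37 genes in the control group (open circles) and the TFAP2C knockdown group (filled circles) of each genome-wide comparison, 1 pooled value per group. Points at the left edge are levels under 0.05 FPKM, and GAPDH, at 1234 to 2842 FPKM, is the highest gene in every group.

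In SKBR3, the transporters and most glycolytic enzymes were lower after TFAP2C siRNA, while the other hypoxia targets were divided. Of the 37 genes 32 had a completed test, of which 16 fell and 5 rose. Of all 9903 genes tested in SKBR3, 21.0% fell and 12.3% rose, 33.3% together. Among the enzymes 12 of 15 tested fell and 0 rose. At an unadjusted p under 0.05 the enzymes counted 13 lower and 0 higher. Here and below, no share of all genes was computed at an unadjusted p, so such counts have no background beside them. Among the other hypoxia targets 2 of 14 tested fell and 4 rose. The median log2 ratio of knockdown over control was -0.48 for the 18 enzymes, 0.04 for the 15 targets with a ratio and -0.09 for all genes tested.

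The glucose transporter SLC2A1 (chromosome 1, 43391024 to 43424564, minus strand, GRCh37) was 1.70-fold lower in SKBR3, at 124.9 FPKM before and 73.58 FPKM after knockdown (log2 ratio -0.76, standard error 0.18, q = 4.41e-04 in the authors' deposited table). The lactate exporter SLC16A3 went from 352.0 to 274.6 FPKM (q = 0.0158 in the authors' deposited table). At the first step, hexokinase, HK2 fell from 25.75 to 18.60 FPKM, whereas HK1, the more abundant of the pair, was at 99.19 and 93.06 FPKM (q = 0.730 in the authors' deposited table). GPI, which makes fructose 6-phosphate, fell from 108.0 to 65.34 FPKM. Of the 3 phosphofructokinase subunits, which form the committed step, PFKL fell from 41.79 to 27.14 FPKM. PFKM, at 19.44 and 17.11 FPKM, and PFKP, at 35.07 and 29.29 FPKM (q = 0.0728 in the authors' deposited table), were not called.

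The steps from fructose bisphosphate to lactate were lower in SKBR3 by a like amount. Aldolase ALDOA went from 966.8 to 642.7 FPKM and ALDOC from 36.08 to 27.18 FPKM. TPI1, which interconverts the 3-carbon sugars, went from 387.1 to 254.6 FPKM, and GAPDH from 2433 to 1614 FPKM. The ATP-forming kinase PGK1 went from 177.2 to 120.0 FPKM and the mutase PGAM1 from 81.40 to 58.05 FPKM. All 6 fell, by 1.33- to 1.52-fold. The enolase ENO1 fell least, from 811.0 to 693.4 FPKM (q = 0.0319 in the authors' deposited table). Pyruvate kinase PKM fell from 329.2 to 238.7 FPKM, and LDHA from 306.6 to 198.1 FPKM. Together the 18 enzymes held 1.32% of all FPKM in SKBR3 control cells and 1.01% after knockdown, of which GAPDH was 41.4% and 39.0%.

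Of the 18 enzymes 16 had a level below control in SKBR3, and the exceptions were PFKFB3 and ENO2. PFKFB3, which makes the activator of phosphofructokinase, went the other way, from 14.61 to 42.55 FPKM (2.91-fold). Its entry that is most abundant over all groups had no completed test in SKBR3, but 2 of its other entries were called higher (11.29 to 32.18 FPKM with q = 4.41e-04 and 2.945 to 9.829 FPKM with q = 0.00313 in the authors' deposited table). With any called entry counted, or with Bonferroni adjustment over entries, PFKFB3 was the 1 enzyme called higher in SKBR3. The related PFKFB4 went from 2.358 to 1.034 FPKM and the second enolase gene ENO2 from 0.0773 to 0.1389 FPKM, both with no completed test.

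Among the other hypoxia targets in SKBR3, ADM (the vasodilator peptide adrenomedullin) rose most, from 13.63 to 28.75 FPKM, a 2.11-fold change (log2 ratio 1.08, standard error 0.26). ADM lies on chromosome 11, 10326620 to 10328944, plus strand (GRCh37). The histone demethylase gene KDM3A rose from 7.761 to 11.51 FPKM, ERO1A, an oxidase of the endoplasmic reticulum, from 17.79 to 26.18 FPKM, and VEGFA, the angiogenic growth factor, from 34.57 to 47.36 FPKM. All 4 had q = 4.41e-04 in the authors' deposited table. HIF1A itself (chromosome 14, 62162231 to 62214977, plus strand, GRCh37) rose from 37.52 to 49.87 FPKM (q = 0.0160 in the authors' deposited table). Only NDRG1, a stress-response gene, and PDK1, the kinase that shuts pyruvate dehydrogenase, fell among the targets tested. NDRG1 went from 220.9 to 89.46 FPKM, a 2.47-fold fall and the largest of the called falls among the 37, and PDK1 from 5.387 to 4.085 FPKM (q = 0.0153 in the authors' deposited table).

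The remaining targets tested in SKBR3 were not called. The carbonic anhydrase gene CA12 was at 121.0 and 125.8 FPKM, the collagen hydroxylase subunits P4HA1 at 100.5 and 95.32 and P4HA2 at 9.701 and 9.690 FPKM. The oxygen-sensing hydroxylases EGLN1, at 10.50 and 9.907 FPKM, and EGLN3, at 6.849 and 7.030 FPKM, likewise had close levels. BNIP3 (26.62 and 23.25 FPKM) and BNIP3L (7.411 and 11.30 FPKM), which promote the removal of mitochondria, and the MYC antagonist gene MXI1 (3.691 and 5.718 FPKM) completed the tested set. The last 2 had 1.53- and 1.55-fold higher summed levels without a call. CA9 (0.04163 and 0 FPKM) and ANKRD37 (0.7092 and 0.4274 FPKM) were too low to be tested.

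**Figure D2:**
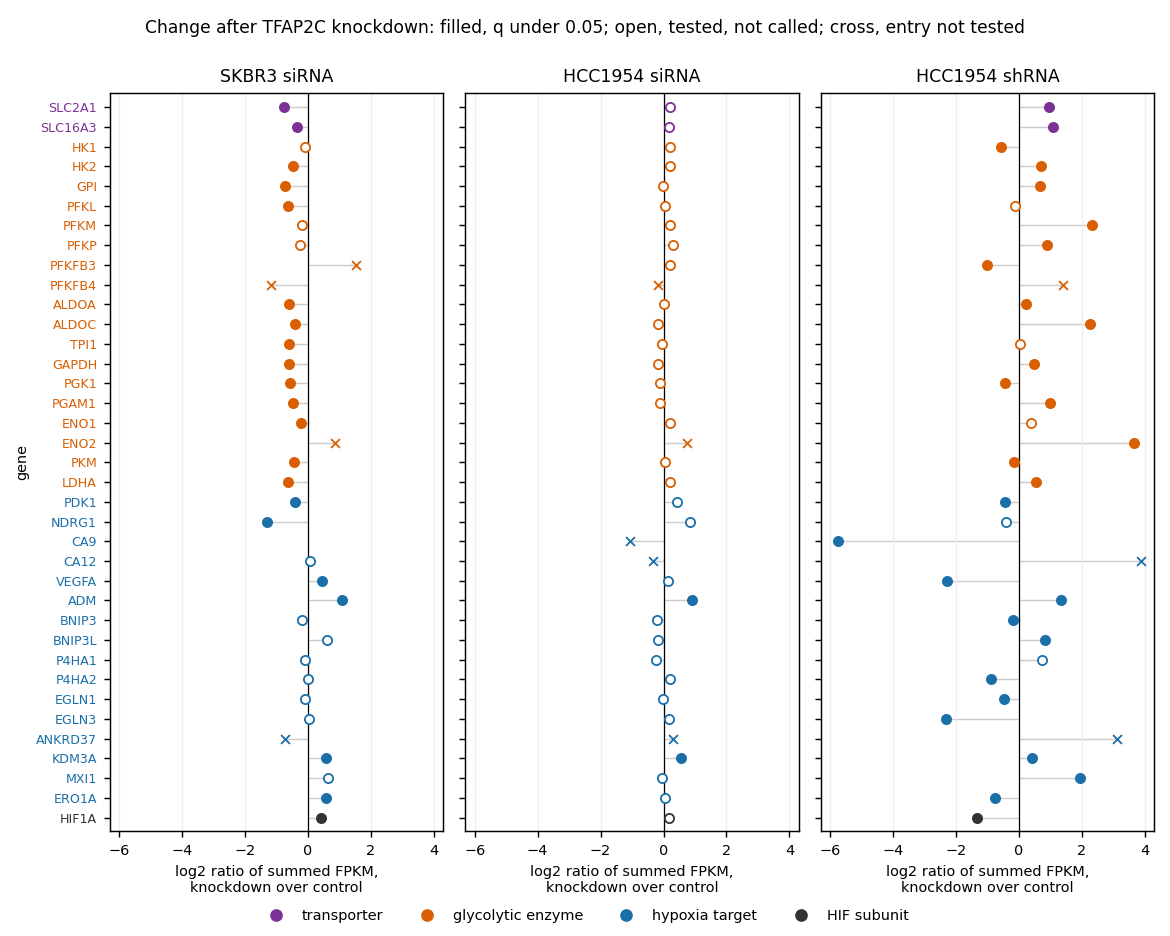
Log2 ratio of summed FPKM, knockdown over control, for each of the 37 genes in the 3 genome-wide comparisons, coloured by role. Filled points had q under 0.05 for the gene's entry, open points were tested and not called, and crosses had no completed test of that entry. With shRNA, PFKFB3 and PKM are filled left of 0 by their sums although their called entries went up. PFKFB3 is a cross in SKBR3 although other entries of it were called higher. CA9 in SKBR3 is left out because its knockdown level is 0. The enzymes lie mostly left of 0 in SKBR3, near 0 with siRNA in HCC1954 and mostly right of 0 with shRNA in HCC1954.

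With siRNA in HCC1954 the enzymes and transporters showed no call in either direction, and 2 hypoxia targets rose. Of the 37 genes 32 were tested, 2 rose and 0 fell, where 2.31% of 10773 genes rose and 0.965% fell (3.28% together). None of 16 enzymes tested by the authors' Cuffdiff was called, nor did any pass after Bonferroni adjustment over entries, and 1 (PGAM1) had an unadjusted p under 0.05. Its entry went up, from 23.72 to 35.54 FPKM, and its summed level was 46.90 and 43.79 FPKM. The risen pair was ADM, from 12.42 to 23.17 FPKM (1.87-fold), and KDM3A, from 9.186 to 13.58 FPKM (1.48-fold), each with q = 0.00425 in the authors' deposited table. With an unadjusted p under 0.05 there were 6 genes higher, by their entries, which added PDK1, VEGFA, EGLN3 and PGAM1, and 0 lower. The share of all genes at that p was not computed, so this count cannot be set against a background. The median log2 ratio was 0.04 for enzymes, 0.09 for hypoxia targets and -0.01 for all genes tested.

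Most members differed little between the siRNA groups of HCC1954. SLC2A1 was at 50.40 and 57.35 FPKM, GAPDH at 1410 and 1234 FPKM, LDHA at 120.9 and 140.6 FPKM and HIF1A at 126.5 and 141.7 FPKM. The 16 tested enzymes had log2 ratios from -0.19 (GAPDH) to 0.30 (PFKP). NDRG1, which fell in SKBR3, was at 13.89 and 24.91 FPKM in HCC1954, a 1.79-fold higher level that was not called (q = 0.989 for its entry in the authors' deposited table, which held 29.4% of the control level). MXI1 was at 16.33 and 15.61 FPKM, EGLN1 at 14.89 and 14.64 FPKM and P4HA2 at 25.40 and 29.18 FPKM, none of them called. CA9, CA12, ANKRD37, PFKFB4 and ENO2, the last at 0.4306 and 0.7125 FPKM, were not tested. CA9 and ANKRD37 were under 0.3 FPKM in both groups.

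In the shRNA pair of HCC1954 the transporters and most enzymes were higher in the group labelled TFAP2C shRNA, and most of the other hypoxia targets were lower. Of the 37 genes 34 were tested, 18 were called higher and 11 lower. The background is high, since 36.3% of 9564 genes were called higher and 39.2% lower, 75.4% together. Among 17 enzymes tested 12 were called higher and 2 lower. For PFKFB3 and PKM the called entry went up while the summed level went down, and without them the enzymes counted 10 higher. Called by the most abundant entry of that table, or with Bonferroni adjustment over entries, both were lower, and the enzymes counted 10 higher and 4 lower. Among 14 other hypoxia targets tested 4 were higher and 8 lower. The median log2 ratio was 0.52 for the enzymes, -0.30 for the targets and -0.03 for all genes tested. As stated above, the shRNA and the cell population cannot be told apart here.

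SLC2A1 rose from 46.81 to 90.66 FPKM in that pair, and SLC16A3 from 83.59 to 175.8 FPKM, a 1.94- and a 2.10-fold change. The largest rise among the enzymes was that of ENO2, an enolase typical of neurons, from 2.988 to 37.48 FPKM (12.5-fold). PFKM, the muscle type of phosphofructokinase, rose from 6.387 to 31.66 FPKM (q = 0.00529 in the authors' deposited table) and ALDOC, an aldolase typical of brain, from 5.773 to 27.22 FPKM. These 3 genes were among the lower-expressed enzymes of the control. Of the highly expressed enzymes, GAPDH rose from 2019 to 2842 FPKM, LDHA from 321.3 to 470.5 FPKM, PGAM1 from 163.4 to 319.2 FPKM and ALDOA from 550.3 to 639.1 FPKM. HK2, GPI and PFKP rose by 1.62-, 1.60- and 1.85-fold.

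Lower levels in the shRNA pair were called for PGK1, which fell from 312.5 to 227.9 FPKM, and HK1, which fell from 42.39 to 28.62 FPKM. ENO1, at 1058 and 1378 FPKM, TPI1, at 539.3 and 551.8 FPKM, and PFKL, at 29.61 and 27.18 FPKM, were not called. PFKFB3 went from 39.96 to 19.72 FPKM in sum. Its called entry rose from 0.4034 to 5.695 FPKM (q = 0.0329 in the authors' deposited table), and 2 other entries fell, the larger from 21.87 to 3.692 FPKM. PKM went from 693.3 to 626.2 FPKM in sum, with 1 entry higher (280.0 to 308.9 FPKM, q = 0.0493 in the authors' deposited table) and 1 lower (357.7 to 268.7 FPKM, q = 1.21e-04 in the authors' deposited table). For these 2 genes the direction rests on the entry that is read. PFKFB4 had no completed test for its representative entry and went from 5.136 to 13.62 FPKM.

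Among the other hypoxia targets of the shRNA pair, the oxygen sensor EGLN3 fell from 30.13 to 6.046 FPKM and VEGFA from 91.59 to 18.61 FPKM. CA9, a carbonic anhydrase used as a marker of hypoxia, fell from 5.988 to 0.1121 FPKM (q = 0.00139 in the authors' deposited table). ERO1A went from 53.53 to 31.27 FPKM, EGLN1 from 23.79 to 17.08, P4HA2 from 19.74 to 10.75, PDK1 from 12.68 to 9.248 and BNIP3 from 38.19 to 33.39 FPKM, all called lower. HIF1A fell from 136.7 to 53.55 FPKM, a 2.55-fold change. Against these falls, ADM rose from 31.38 to 78.78 FPKM, MXI1 from 6.959 to 26.91, BNIP3L from 29.53 to 51.64 and KDM3A from 12.14 to 15.99 FPKM. NDRG1 (68.26 and 51.65 FPKM) and P4HA1 (23.34 and 38.65 FPKM) were not called, and CA12 (0.2415 and 3.591 FPKM) and ANKRD37 (0.3408 and 2.932 FPKM) were not tested.

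**Figure D3:**
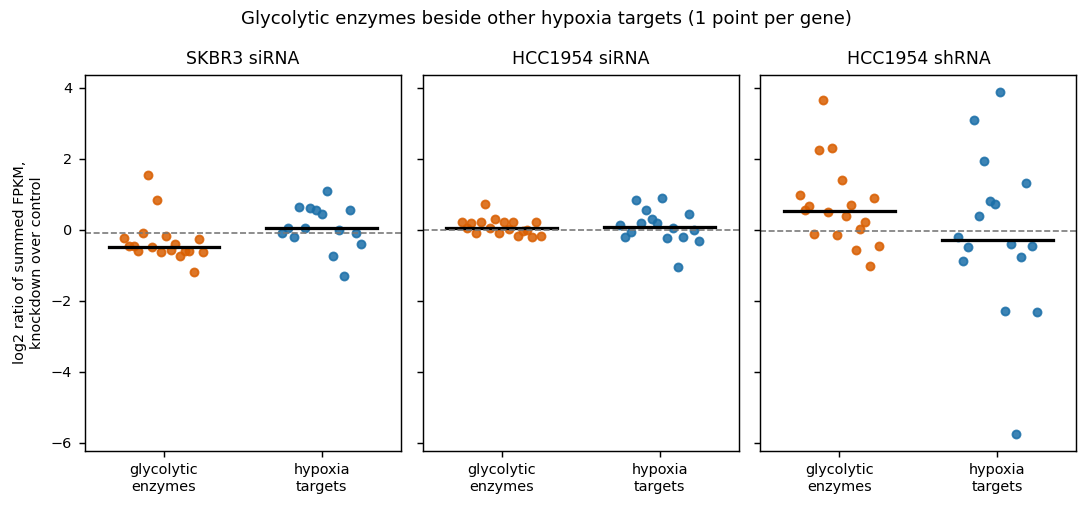
Log2 ratio of summed FPKM, knockdown over control, of glycolytic enzymes and other hypoxia targets in the 3 genome-wide comparisons, with 1 point per gene. Black bars are the medians (-0.48 and 0.04, 0.04 and 0.09, 0.52 and -0.30), and the dashed line is the median of all genes tested.

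The enzyme median was therefore below the target median in SKBR3 and above it in the shRNA pair. In SKBR3 the target median, 0.04, was close to 0, with 8 targets above and 8 below control. No test was made over the members of a list. The size of these medians depends in part on scaling: total FPKM was lower in the knockdown group by 0.12 (SKBR3) and 0.11 (shRNA) on the log2 scale. Divided by the total, the enzyme median became -0.36 in SKBR3 and 0.63 in the shRNA pair, and the target median 0.16 and -0.19. GAPDH, often used as a reference, had a log2 ratio of -0.59, -0.19 and 0.49 in SKBR3, HCC1954 siRNA and HCC1954 shRNA. Read relative to GAPDH, the other 17 enzymes had medians of 0.12, 0.23 and 0.06. ACTB, another common reference, was at 3021 and 3117 FPKM in SKBR3 and at 1369 and 1579 FPKM with siRNA in HCC1954, not called in either. It fell in the shRNA pair, from 3125 to 1442 FPKM.

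Some of the members carried opposite calls in SKBR3 and in the HCC1954 shRNA pair. The line, the agent (transient siRNA or stable shRNA) and the cell population differ together between these comparisons and cannot be told apart. Of 31 members tested in both, 10 were lower in SKBR3 and higher with shRNA, a pattern found in 8.83% of 8446 genes. They were SLC2A1, SLC16A3, HK2, GPI, ALDOA, ALDOC, GAPDH, PGAM1, PKM and LDHA. PKM counts here by its called entry alone, since its summed level went down in the shRNA pair and it was called lower there with the most abundant entry of that table. VEGFA, ERO1A and HIF1A had the reverse pattern, higher in SKBR3 and lower with shRNA, as did 7.22% of genes. PGK1 and PDK1 were lower in both, as were 8.80% of genes. ADM and KDM3A were higher in both (3.24% of genes) and in all 3 comparisons (0.199% of 8053 genes). They were also the 2 members called higher in both siRNA comparisons, where 0.685% of 8907 genes were, so the same 2 genes are found without the shRNA pair. No member was lower in all 3 comparisons by Cuffdiff, where 0.397% of 8053 genes were, and none was lower in both siRNA comparisons (0.472% of genes) since 0 fell in HCC1954 at an adjusted or an unadjusted p under 0.05.

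Whether a change differed between comparisons was tested with z, the difference of the log2 ratios of a gene's entry over its standard error, adjusted over all genes tested in both tables (Benjamini-Hochberg). Between the siRNA comparisons in SKBR3 and HCC1954, 0 of 31 members differed (0.505% of 8907 genes did), 1 (SLC2A1, by 0.95) at an unadjusted p under 0.05, and 10 when the standard error was taken from the deposited p instead of the statistic (12.4% of genes). The fall of the enzymes in SKBR3 and its absence among calls in HCC1954 is thus not shown to be a difference between the lines by the first of these errors. By the second error, 7 of the 10 were enzymes (HK2, GPI, PFKL, ALDOA, TPI1, PGAM1 and ENO1). Of the rest, 2 were hypoxia targets (PDK1 and ERO1A) and the last was SLC2A1. Which of the errors is right was not tested. Between the siRNA and shRNA pairs of HCC1954, 4 of 32 members differed (13.8% of 8634 genes), namely ALDOC, VEGFA, EGLN3 and HIF1A, and 16 with the error from the deposited p (49.3% of genes). Between SKBR3 and the shRNA pair 14 of 31 differed (26.9% of 8371 genes), and 22 with the error from the deposited p (60.7% of genes). For SLC2A1 the difference was 1.72 with a standard error of 0.221 (adjusted p of z = 3.57e-13), and for HIF1A it was -1.70 with a standard error of 0.273 (adjusted p of z = 1.13e-08). With the error from the deposited p, which was 0.301 for SLC2A1, its adjusted p of z was 8.06e-07.

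**Figure D4:**
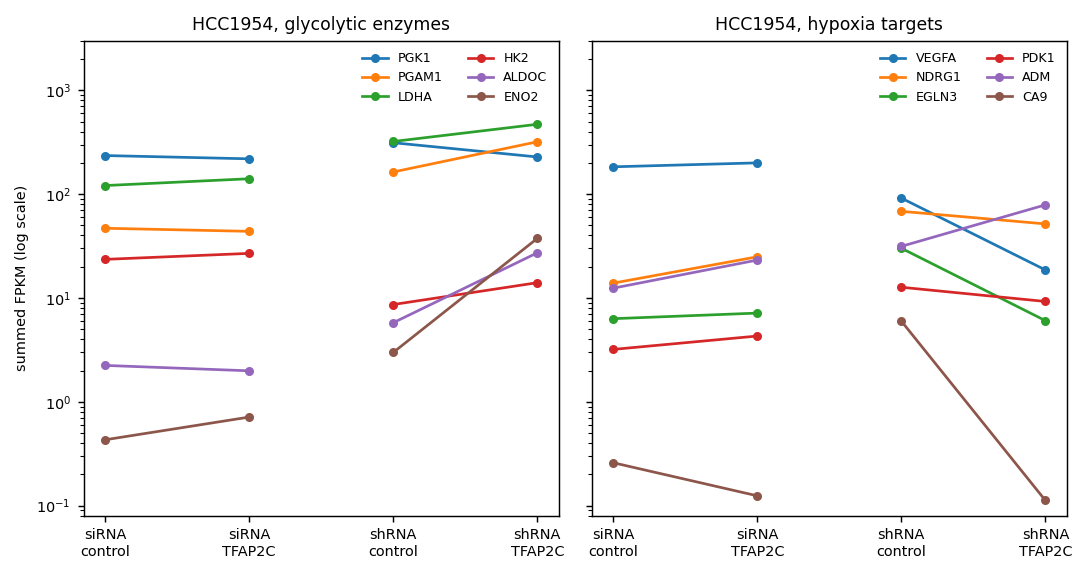
Summed FPKM (log scale) of 6 enzymes and 6 hypoxia targets in the 4 groups of HCC1954, with lines joining control and knockdown of a pair. In the siRNA pair ADM and NDRG1 go up and CA9, at 0.2589 and 0.1243 FPKM, goes down, and EGLN3, NDRG1, PDK1, ADM and CA9 start higher in the shRNA control than in the siRNA control.

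The 2 control groups of HCC1954 already differed in their hypoxia targets. Their tables were normalized separately, so these levels are set side by side without a test. The shRNA control was above the siRNA control by more than 1 log2 unit in 9 of 16 targets (56.2%), against 13.8% of 8725 genes, and the median log2 ratio was 1.30 for targets, 0.34 for enzymes and 0.08 for all genes. EGLN3 was at 6.31 FPKM in the siRNA control and 30.1 FPKM in the shRNA control, NDRG1 at 13.9 and 68.3 FPKM, PDK1 at 3.20 and 12.7 FPKM, and CA9 at 0.259 and 5.99 FPKM. VEGFA went the other way, at 183 and 91.6 FPKM, and HIF1A was at 126 and 137 FPKM. EGLN3, at 6.05 FPKM in the shRNA knockdown, was then close to its level in the siRNA control. So were ERO1A, at 31.3 FPKM (32.9 FPKM in the siRNA control), and EGLN1, at 17.1 FPKM (14.9 FPKM). CA9, at 0.112 FPKM, was low in both. PDK1, at 9.25 FPKM, and VEGFA, at 18.6 FPKM, were not close to the siRNA control. Nor were P4HA2, at 10.8 FPKM (25.4 FPKM), and BNIP3, at 33.4 FPKM (13.9 FPKM).

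The lines also differed in which members they expressed. In control cells CA12 was at 121 FPKM in SKBR3 and 1.16 FPKM with siRNA in HCC1954, P4HA1 at 101 and 7.54 FPKM, NDRG1 at 221 and 13.9 FPKM, and ALDOC at 36.1 and 2.24 FPKM. The median of these ratios was 0.28 on the log2 scale for enzymes and -0.06 for targets, with SKBR3 over HCC1954.

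**Figure D5:**
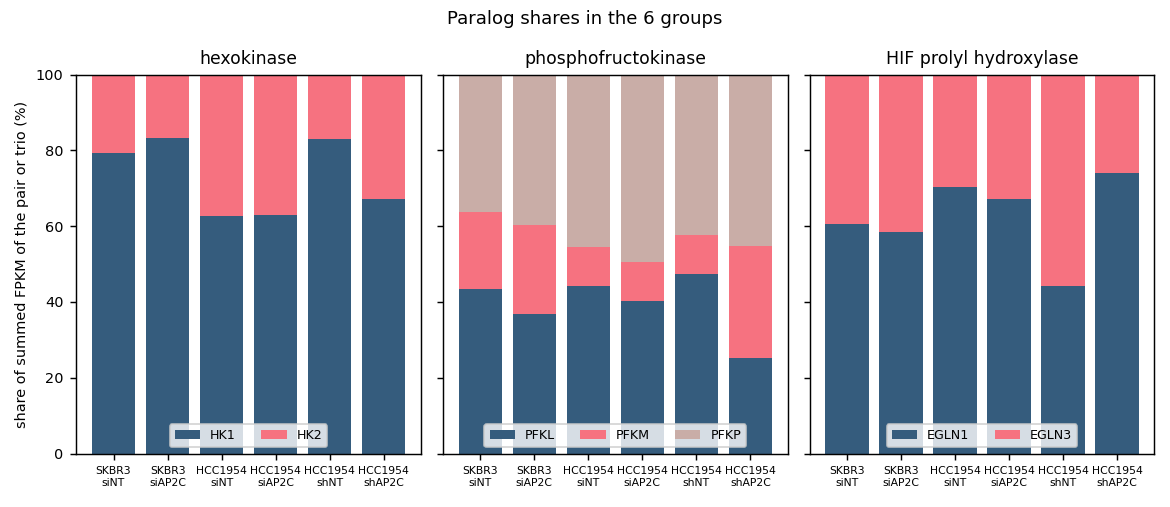
Share (%) of the summed FPKM of a pair or trio of paralogs held by each gene in the 6 groups of the genome-wide tables, for hexokinases, phosphofructokinases and HIF prolyl hydroxylases. The shares in each siRNA pair are close, and in the shRNA pair HK2 goes from 16.9% to 32.9%, PFKM from 10.2% to 29.5% and EGLN3 from 55.9% to 26.1%.

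Paralogs that catalyse the same step shared out differently by group. HK2, the inducible hexokinase, made up 20.6% of HK1 plus HK2 in SKBR3 control cells and 16.7% after knockdown. In HCC1954 its share was 37.4% and 37.1% with siRNA, and 16.9% and 32.9% with shRNA. PFKM held 20.2% and 23.3% of phosphofructokinase FPKM in SKBR3, 10.3% and 10.4% with siRNA and 10.2% and 29.5% with shRNA in HCC1954. Among the HIF prolyl hydroxylases EGLN3 held 39.5% and 41.5% beside EGLN1 in SKBR3, 29.8% and 32.8% with siRNA in HCC1954, and 55.9% and 26.1% with shRNA. P4HA1 made up 91.2% of P4HA1 plus P4HA2 in SKBR3 control cells and 22.9% in HCC1954 siRNA control cells. LDHB, the lactate dehydrogenase subunit of heart and the partner of LDHA, is named after its values were seen. In SKBR3 it fell from 162 to 133 FPKM. It was listed at 0 in both siRNA groups of HCC1954, and was at 0.0721 FPKM in the shRNA control and 462 FPKM in the group labelled TFAP2C shRNA (q = 0.0685 in the authors' deposited table). LDHA held nearly all lactate dehydrogenase FPKM in 3 of the 4 HCC1954 groups, and 50.4% in that one.

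Neighbouring pathways and the regulators of HIF were counted in 5 further lists. The shares of all genes given beside these counts are those of the calls and not those at an unadjusted p. Of the tricarboxylic acid cycle, which oxidises acetyl groups in mitochondria, 14 of 19 tested genes fell in SKBR3 and 1 rose (21.0% and 12.3% of all genes), with a median log2 ratio of -0.51. OGDH fell from 42.9 to 25.4 FPKM and MDH1 from 104 to 62.8 FPKM, and the cytosolic enzyme gene IDH1 rose from 54.0 to 77.0 FPKM. With siRNA in HCC1954, Cuffdiff called 0 of 19, and 3 were lower and 0 higher at an unadjusted p under 0.05. In the shRNA pair 12 of 20 were lower and 4 higher (39.2% and 36.3% of all genes). FH fell from 87.4 to 30.5 FPKM and ACO1 from 42.0 to 15.6 FPKM, while MDH1 rose from 77.9 to 147 FPKM and SDHB from 54.5 to 75.6 FPKM.

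Of 16 genes that handle pyruvate and lactate, 6 of 12 tested fell and 2 rose in SKBR3, against 21.0% and 12.3% of all genes. The pyruvate carrier MPC1 fell from 62.2 to 24.8 FPKM and pyruvate carboxylase PC from 5.23 to 1.67 FPKM. The lactate transporter SLC16A1 rose from 1.19 to 4.61 FPKM, opposite to SLC16A3, and PDK4, a kinase that shuts pyruvate dehydrogenase like PDK1, from 9.29 to 18.9 FPKM. In the shRNA pair 5 of 13 were lower and 3 higher, where 39.2% of all genes were lower and 36.3% higher, so neither count is above the background. SLC16A1 rose there as well, from 13.9 to 75.7 FPKM, and the phosphatase gene PDP1 from 146 to 561 FPKM. PC fell from 6.64 to 3.07 FPKM and PDK3 from 11.5 to 5.81 FPKM. With siRNA in HCC1954 neither Cuffdiff nor the unadjusted p called any of 12.

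Of 30 genes of the pentose phosphate pathway and other branches from glucose, 4 of 20 tested fell and 7 rose in SKBR3, against 21.0% and 12.3% of all genes. FBP1, which runs the phosphofructokinase step backwards, fell from 18.6 to 6.03 FPKM and RPIA, which makes ribose 5-phosphate, from 15.7 to 7.61 FPKM. PHGDH, the entry to serine synthesis, rose from 14.6 to 28.7 FPKM and BPGM from 13.3 to 23.2 FPKM. In the shRNA pair 14 of 20 were lower and 5 higher, against 39.2% and 36.3% of all genes. PFKFB2, a relative of PFKFB3, fell from 18.8 to 3.82 FPKM. RPIA rose from 8.58 to 27.7 FPKM and PGAM5 from 37.6 to 78.7 FPKM. PGAM5 was counted in this list although it encodes a protein phosphatase of mitochondria and not an enzyme of glucose use. With siRNA in HCC1954 Cuffdiff called 0 of 19, and 3 were lower at an unadjusted p under 0.05.

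Of 18 regulators of HIF, 3 of 16 tested fell in SKBR3 and 1 rose, against 21.0% and 12.3% of all genes. Neither count is above the background. VHL, the ubiquitin ligase subunit that removes HIF alpha, fell from 20.8 to 14.1 FPKM and the HIF inhibitor gene CITED2 from 84.0 to 61.1 FPKM. The prolyl hydroxylase gene EGLN2 rose from 38.9 to 48.1 FPKM. In the shRNA pair 5 of 15 were lower and 4 higher, against 39.2% and 36.3% of all genes, which is likewise not above the background. EPAS1, which encodes HIF-2alpha, fell from 25.2 to 6.13 FPKM alongside HIF1A, and EGLN2 fell from 86.2 to 30.3 FPKM. ARNT2 rose from 1.12 to 5.37 FPKM and HIF1AN, the asparaginyl hydroxylase that inhibits HIF, from 13.2 to 29.6 FPKM. With siRNA in HCC1954 Cuffdiff called 0 of 15, with 3 higher and 1 lower at an unadjusted p under 0.05.

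Among 31 further genes known to respond to hypoxia, 6 of 21 tested rose and 2 fell in SKBR3, against 12.3% and 21.0% of all genes. With siRNA in HCC1954 7 of 25 rose and 0 fell by Cuffdiff (1 was lower at an unadjusted p under 0.05), against 2.31% and 0.965%. With shRNA 8 of 26 were higher and 15 lower, against 36.3% and 39.2%, and the calls of HILPDA and TXNIP went against their summed levels. IGFBP3, which binds insulin-like growth factors, rose in SKBR3 (2.21 to 32.6 FPKM) and in the siRNA pair of HCC1954 (115 to 248 FPKM), and fell in the shRNA pair (264 to 4.77 FPKM). The kinase gene PIM1 rose in SKBR3, from 1.32 to 5.80 FPKM. It was also called higher with siRNA in HCC1954, and with shRNA it fell from 45.1 to 5.12 FPKM. FAM162A and the lysyl hydroxylase gene PLOD1 had the opposite calls to IGFBP3 and PIM1 in SKBR3 and in the shRNA pair. In SKBR3 FAM162A fell from 40.3 to 25.7 FPKM and PLOD1 from 36.2 to 27.7 FPKM. With shRNA they rose, FAM162A from 22.9 to 63.2 FPKM and PLOD1 from 27.9 to 76.5 FPKM.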

How the data were processed

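The libraries, per the labels' protocols, came from a TruSeq RNA kit. The sources used here do not say whether counting used strand, so a gene and an antisense partner cannot be told apart. The submitters' processing notes name Bowtie 0.12.2, Cuffdiff (no version) and hg19, also written GRCh37. FPKM values, 1 per RefSeq entry and group with its 3 samples pooled, were made by the authors, per the file headers. Each entry's p-value and q-value were likewise computed by the authors, per the file headers. A score, the statistic of the authors' test, was used as deposited. The smallest deposited p was 5.00e-05. No column holds a single sample, so depth and replicate spread are unknown and no model was fitted to samples. In 1 table the columns name the siRNA but no line. Its line was read from the table's deposited name, HCC1954, which the other siRNA tables leave free.

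Of 66321 accessions 65468 matched a symbol in a RefSeq table (GRCh38.p14, used for names and promoters) and 853 did not. FPKM was summed per symbol for levels and ratios, with no pseudocount. A call is q under 0.05 with a completed test for the gene's entry of highest mean FPKM across 6 groups. Coordinates are those of GENCODE genes on GRCh37. The z test of a difference between comparisons used as standard error the log2 ratio over the deposited statistic. For genes above the smallest deposited p, that p was turned into a normal quantile. It exceeded the statistic by a median factor of 2.01 in SKBR3, 2.48 for siRNA and 3.39 for shRNA in HCC1954. This makes the z test a strict one for those genes. For genes at the smallest p it can be the less strict one. For SLC2A1 between SKBR3 and the shRNA pair the error was 0.221 from the statistic and 0.301 from the deposited p. The z test was run on simulated log2 ratios drawn with these same standard errors. That run cannot show whether the errors themselves are right. Python 3.11.15, pandas 2.3.3 and scipy 1.17.1 were used.

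All 37 members are named, with TFAP2C and ERBB2. From the 5 further lists, up to 2 called genes per direction and comparison with the largest change are named, among those at 1 FPKM or more in both groups, and 2 of these are not reported here. The members and lists were chosen with earlier results of these data known. Alternatives were a q of 0.01, other choices of entry, another adjustment, a minimum of 1 FPKM, a pseudocount of 1 FPKM, centring and another standard error. Scaling to total FPKM and requiring the sum to move with the call were chosen after seeing the data.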

Additional observations from a re-analysis of the deposited data

Results flagged for a closer look

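For 14 of 31 members the log2 ratio of the shRNA pair of HCC1954 differed from that of the siRNA pair in SKBR3 past an adjusted p of 0.05 in the z test of the difference, as did 26.9% of 8371 genes (60.7% with the error taken from the deposited p, where 22 members differed). The difference, shRNA minus SKBR3, was 1.72 for SLC2A1, 1.33 for SLC16A3, 1.17 for HK2, 1.62 for GPI, 0.70 for ALDOA and 2.65 for ALDOC. It was 0.66 for TPI1, 1.08 for GAPDH, 1.52 for PGAM1 and 1.10 for LDHA. It was -2.88 for VEGFA, -2.42 for EGLN3, -1.33 for ERO1A and -1.70 for HIF1A. All 8 enzymes and both transporters on this list were relatively higher with shRNA, and the 3 hypoxia targets and HIF1A relatively lower. Between these comparisons the line, the agent and the cell population differ together and cannot be told apart. TPI1 was called in SKBR3 only, and EGLN3 in the shRNA pair only.

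Within HCC1954 4 members differed between the shRNA and the siRNA pair in the same test, which out of 32 tested is near the background of 13.8% of 8634 genes. The difference, shRNA minus siRNA, was 2.41 for ALDOC, -2.77 for VEGFA, -2.98 for EGLN3 and -1.56 for HIF1A. None of these 4 was called in the siRNA pair. In the group labelled TFAP2C shRNA the basal epithelial markers were at 0.640 FPKM in sum against 655 FPKM in its control, and their part in these differences was not tested.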

How the results depend on the processing

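The counts of members called higher and lower kept to within 1.5 times of those reported in each comparison under each alternative run: in SKBR3 4 to 6 higher and 12 to 16 lower, with siRNA in HCC1954 2 and 0, with shRNA 16 to 18 and 10 to 13. With FPKM divided by the total, the enzyme median was -0.36 in SKBR3 and 0.63 with shRNA, and the target median 0.16 and -0.19. With the entry of highest mean FPKM over the 6 groups alone, the enzyme median with siRNA in HCC1954 was 0.17 and the target median with shRNA -0.14. In that run the log2 ratio with shRNA reversed to 3.82 for PFKFB3 and 0.14 for PKM, whose other entries went down. The target median with shRNA was -0.42 over entries with a completed test and -0.40 with a minimum of 1 FPKM. Where the error of the z test came from the deposited p, the members that differed numbered 10 (SKBR3 against HCC1954 siRNA), 16 (siRNA against shRNA in HCC1954) and 22 (SKBR3 against shRNA). Of 540 log2 ratios of single members under the alternatives, 510 kept, 28 moved and 2 reversed. No paired analysis was possible because the tables hold 1 pooled value per group, and for that reason no replicate could be left out. Depth is unknown, and CA9, ANKRD37, CA12, ENO2, PFKFB3 and PFKFB4 lacked a completed test of their entry in at least 1 comparison.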
